A study of Sus scrofa with 19 samples.

Results

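Transforming growth factor beta (TGF-beta) ligands, their receptors and the latent TGF-beta binding proteins (LTBPs) were followed across 5 groups of pig myocardium. The set was defined by gene symbol as the ligands TGFB1, TGFB2 and TGFB3, the receptors TGFBR1, TGFBR2 and TGFBR3, and LTBP1 to LTBP4. All 10 genes were found by symbol in the authors' table, linked by Ensembl identifier to the raw counts, and all 10 were among the 13552 genes tested, out of 25879 genes counted.

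Each of the 19 libraries came from the left ventricular myocardium of 1 pig, labelled as a female large white, so replicates are animals. DOX (n = 5) received doxorubicin, an anthracycline chemotherapy, and MYO (n = 5) received Myocet, the same drug in liposomes, both at 60 mg/m2 in 3 cycles, with anterior wall taken after 3 months because the animals' health forced an early end. RemoLV (n = 3) had a 90 min balloon occlusion of the left anterior descending coronary artery with reperfusion, and the remote, non-infarcted posterior wall was taken after 6 months. Hyper (n = 3) were juvenile pigs given an aortic stent of fixed width that became a stenosis as they grew, with anterior wall taken after 6 months. Control (n = 3) are labelled as sham-operated, with anterior wall taken after 6 months, and the methods text calls them untreated. DOX and MYO thus differ from the Control animals in follow-up time as well as in drug, and RemoLV differs in wall as well as in infarction. The methods text describes the Control pigs as matched in age to the treated pigs, and the ages themselves are not given in the sources used here.

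TGF-beta is secreted in a latent form. Its propeptide stays wrapped around the ligand, an LTBP is bound to the propeptide, and the LTBP attaches the complex to fibrillin and fibronectin in the matrix until integrins, proteases or thrombospondin release the ligand. LTBP2 differs from the other members of its family in that it is a fibrillin-associated matrix protein that does not bind latent TGF-beta. The freed ligand is captured by TGFBR2, helped by the co-receptor TGFBR3 (betaglycan), and TGFBR2 then phosphorylates TGFBR1, which activates SMAD proteins. In the heart the pathway is best known for turning fibroblasts into matrix-producing myofibroblasts.

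Several libraries stood apart from their labels. The columns of the authors' table matched the count files one to one in rank order, but 8 of 19 columns carried the name of another group. The table calls Control the 3 libraries that the count files call RemoLV, and calls RemoLV the 3 that the count files call Control, while 1 DOX and 1 MYO library changed places. The count file labels are used here unless table names are stated, and the files do not decide between the namings. The 3 libraries labelled RemoLV also differed from their tissue label: MYL4, an atrial myosin light chain, had a mean of 7170 CPM (counts relative to the TMM-scaled library size) against 1.02 to 9.87 in the other groups, and MYL2, its ventricular relative, had 58 CPM against 10400 to 15900. Summed CPM of 4 Y-linked genes was 172 to 252 in the DOX and MYO libraries and 0 to 0.226 in the others, although the labels describe all animals as female. Treatment in DOX and MYO therefore cannot be told apart from these transcripts, from the shorter follow-up or from the earlier study in which those animals were first used. Total counts were 9527710 to 20370209 per library, and the members had 72 counts (LTBP2) to 11142 counts (LTBP4) in a library, which limits the precision of TGFB2, TGFB3 and LTBP2 most. In bulk tissue, fewer cells of a type and less RNA per cell cannot be told apart.

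The LTBP genes carried the largest differences of the set, so the 250 bases upstream of the RefSeq gene start are shown on Sscrofa11.1 for 3 of them. The windows are chr3:106724539-106724788 (minus strand) for LTBP1, chr7:97852849-97853098 (minus) for LTBP2 and chr6:48830768-48831017 (plus) for LTBP4. Capitals mark GC boxes, searched as GGGCGG on either strand, which appears as CCGCCC when it lies on the opposite strand.
LTBP1: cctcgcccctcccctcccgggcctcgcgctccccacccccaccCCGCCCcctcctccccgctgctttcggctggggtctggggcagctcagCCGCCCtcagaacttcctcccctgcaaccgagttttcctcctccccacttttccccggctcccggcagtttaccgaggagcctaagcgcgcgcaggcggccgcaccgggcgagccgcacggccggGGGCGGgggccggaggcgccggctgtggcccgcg
LTBP2: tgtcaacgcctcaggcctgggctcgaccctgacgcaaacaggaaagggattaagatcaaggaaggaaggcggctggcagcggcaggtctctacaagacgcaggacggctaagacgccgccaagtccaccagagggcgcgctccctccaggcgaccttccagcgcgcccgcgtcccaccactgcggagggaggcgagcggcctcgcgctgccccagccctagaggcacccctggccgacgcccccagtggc
LTBP4: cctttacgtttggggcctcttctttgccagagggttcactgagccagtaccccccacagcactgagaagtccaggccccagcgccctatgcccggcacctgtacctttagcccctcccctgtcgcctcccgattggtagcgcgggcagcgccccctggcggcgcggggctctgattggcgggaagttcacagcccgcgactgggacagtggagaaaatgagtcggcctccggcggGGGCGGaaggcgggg
A GC box was in the windows of LTBP1 and LTBP4 and not in that of LTBP2, and 45.9% of 19569 promoters of this length held it. GC content was 76.4% for LTBP1, 68.8% for LTBP2 and 67.2% for LTBP4, beside a median of 57.6% over all promoters. Among the ligands and receptors, the windows of TGFB3 and TGFBR1 held no GC box, and an AP-1 site (TGACTCA, in 2.9% of promoters) was in that of TGFBR2. The SMAD sequences CAGACA (12.8% of promoters) and GTCTAGAC (0.164%), the CRE TGACGTCA (1.7%) and TATAAA (9.77%) were in none of the windows described.

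The LTBP levels were compared by length first, because raw CPM favours long transcripts. On the scale of CPM per kb of RefSeq exons, LTBP4 had the highest level of the 10 members in every group, with a mean of 58.4 ± 10.7 (SD, n = 3) in Control, 66.9 in Hyper, 87.5 in DOX, 93.3 in MYO and 128 ± 17.7 (n = 3) in RemoLV. TGFBR2 came next, from 31.4 in Hyper to 46 in RemoLV. TGFB1 was the most abundant ligand at 12.5 to 18.7 CPM per kb, and TGFB2 (0.9 to 2.11) was at the low end, as was LTBP2 outside RemoLV (0.599 to 1.95, against 6.87 in RemoLV). The 4 LTBPs together reached 76.4 ± 13.9 in Control, 87 ± 16 in Hyper, 114 ± 15.7 (n = 5) in DOX, 119 ± 8.27 (n = 5) in MYO and 198 ± 15.4 in RemoLV, where the lowest library, at 186, lay above the highest of any other group, at 138.

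**Figure D1:**
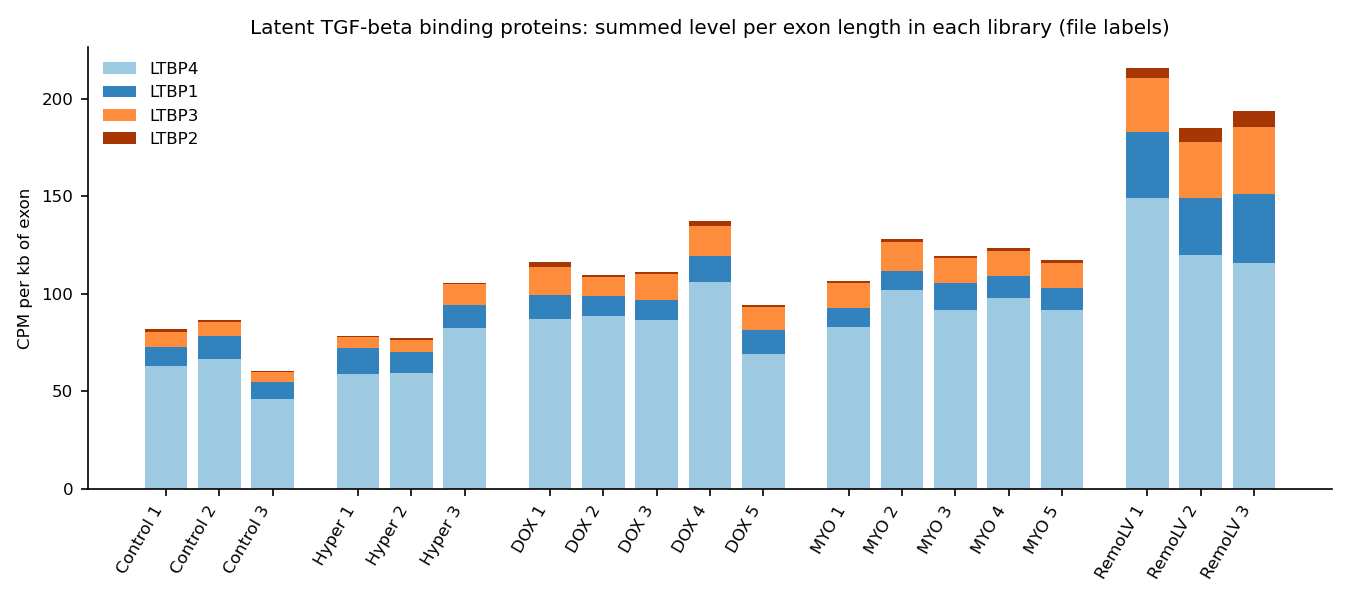
Level of LTBP1 to LTBP4 in each library, in CPM per kb of exon, stacked by gene, on a linear axis from 0. LTBP4 is the tallest segment in all libraries, and its mean share of the sum is 76.5% in Control and 64.6% in RemoLV.

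The make-up of each family also differed in the libraries labelled RemoLV. LTBP4 made up 76.5% ± 0.121 of the length-scaled LTBP signal in Control and 64.6% ± 4.57 in RemoLV, while LTBP1 held 13.4% and 16.5%, LTBP3 8.79% and 15.4%, and LTBP2 1.31% and 3.52%. TGFB1 held 70.4% ± 1.52 of the ligand signal in Control, 62.5% ± 0.94 in RemoLV and 79.6% ± 4.15 in Hyper. TGFB3 held 22.3% ± 2.02 in Control, 33% ± 1.54 in RemoLV and 13.5% ± 3.75 in Hyper. Receptor make-up varied less, with TGFBR2 at 73.5% to 78.2% in all groups. These shares are descriptions, with no test.

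Among the ligands, TGFB1 (chr6:49332169-49348642, minus strand), the isoform most studied in cardiac fibrosis, was the member that set the anthracycline groups apart. It had 51.1, 45.7, 46.1, 59.6 and 52.3 CPM in DOX and 53.2, 46.1, 60.4, 53.3 and 44.3 CPM in MYO. Control had 43.6, 28.9 and 37.4 CPM, RemoLV 36.8, 34.1 and 32.5 CPM, and Hyper 35, 40.6 and 40.5 CPM. All 10 DOX and MYO libraries lay above all 9 others, though the gap was narrow, from 44.3 to 43.6 CPM. Of all genes tested, 1.84% separated these libraries in that direction and 1.26% in the other, and TGFB1 was the only member to do so in either, although with totals alone TGFB2 did so as well. Relative to Control, TGFB1 rose by a log2 fold change of 0.48 ± 0.13 (SE) in DOX (1.39-fold, edgeR quasi-likelihood adjusted p = 0.00795) and by 0.49 ± 0.13 in MYO (adjusted p = 0.00635). Under the table names the rises were 0.57 in both, and the call stood in each edgeR and DESeq2 alternative run on the file labels.

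TGFB2 (chr10:8306136-8435307, plus strand), an isoform with a prominent role in heart development, was the least abundant ligand per length. It had 13.1, 10.8, 14.9, 14 and 14.3 CPM in DOX and spread most in MYO, at 18.8, 28.4, 16.6, 9.7 and 12 CPM. Control had 9.26, 10.5 and 12.8 CPM, Hyper 9.28, 9.11 and 11.3 CPM, and RemoLV 6.47, 7.95 and 7.49 CPM, so that every RemoLV library lay below every other one. With libraries scaled by their totals alone RemoLV (7.25 to 8.82 CPM) overlapped Control 1 (6.8 CPM), Hyper 1 (8.25 CPM) and Hyper 2 (7.6 CPM). Relative to Control it rose in MYO by 0.66 ± 0.25 (edgeR adjusted p = 0.0403) and was at 0.30 in DOX (adjusted p = 0.335), where scaling by totals alone gave a called rise of 0.73 (adjusted p = 0.0168). The MYO call was lost without the library MYO 2, at 0.40 (adjusted p = 0.122), and also without MYO 1 or 3 or any of the Control libraries, when only the 2 groups were fitted (0.64, adjusted p = 0.13) and with the 3 libraries labelled RemoLV left out (adjusted p = 0.0536).

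TGFB3 (chr7:99133873-99162239, minus strand), the other isoform, which signals through the same receptors, varied most among its own replicates. DOX had 56.2, 18.9, 17.6, 19 and 13.8 CPM, where the library DOX 1 was far above the rest, and MYO had 15.1, 19.7, 13.1, 18.6 and 21.7 CPM. RemoLV had 28.4, 24.9 and 22.2 CPM, Control 19.9, 11.2 and 17.6 CPM, and Hyper the lowest values at 8.38, 6.4 and 12.6 CPM. RemoLV did not overlap Control or Hyper, but it overlapped DOX through that 1 library. No comparison with Control was called for TGFB3 (0.64 in RemoLV, edgeR adjusted p = 0.2, and -0.82 in Hyper, adjusted p = 0.302). Without DOX 1 the RemoLV value was 0.64 with an adjusted p of 0.0347. With libraries scaled by their totals alone, TGFB3 was called in RemoLV (1.18, adjusted p = 0.0144) and in DOX (1.08, adjusted p = 0.0167). With TMM scaling the DOX value was 0.64 (adjusted p = 0.168), and it was 0.09 without DOX 1.

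**Figure D2:**
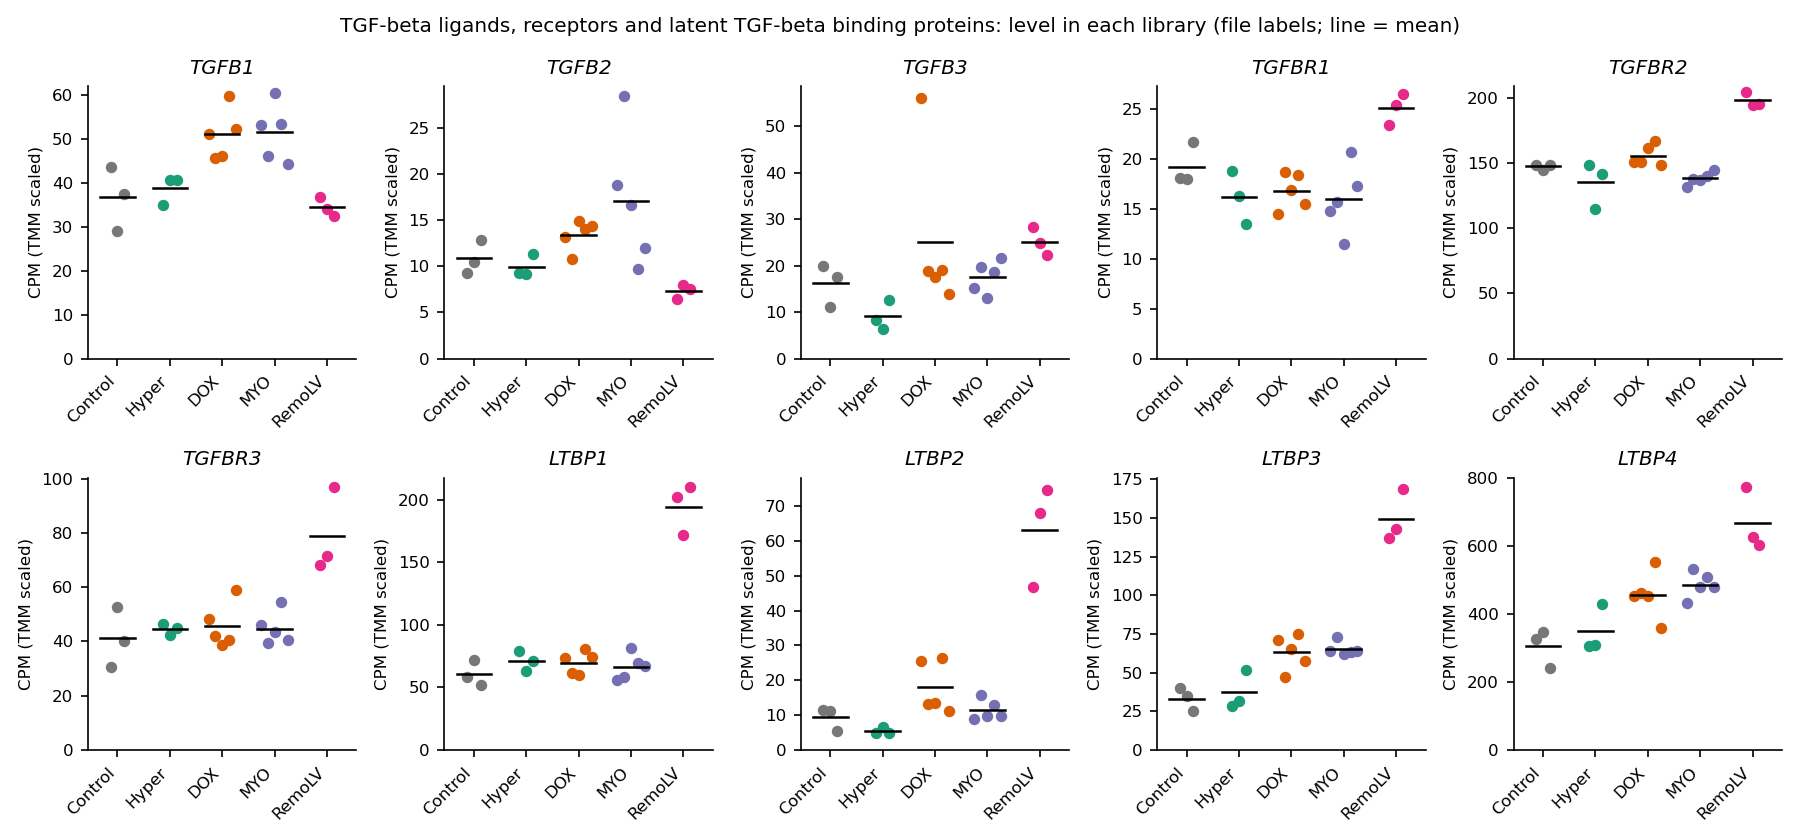
CPM of each member in each of the 19 libraries by file label group, 1 panel per gene with its own linear axis, with points for libraries and lines for group means. TGFB1 is highest in DOX and MYO, whereas the receptors and LTBPs are highest in the 3 libraries labelled RemoLV.

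The receptors differed little between DOX, MYO, Hyper and Control and were all highest in the libraries labelled RemoLV. TGFBR2 (chr13:16784370-16875828, plus strand), the ligand-binding kinase, had 205, 195 and 196 CPM there. It had 149, 145 and 149 CPM in Control, 151, 151, 162, 167 and 149 CPM in DOX, 132, 138, 137, 140 and 145 CPM in MYO, and 149, 115 and 142 CPM in Hyper. Its values were close together in each group but Hyper (136 ± 18.2 CPM), and the RemoLV libraries exceeded Control by 0.42 ± 0.09 (edgeR adjusted p = 0.00134).

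TGFBR3 (chr4:125109939-125310788, plus strand), the co-receptor betaglycan that presents TGF-beta 2 in particular, had 68.1, 71.6 and 97.1 CPM in RemoLV and 30.7, 52.7 and 40.1 CPM in Control. The highest library outside RemoLV was a DOX library at 59 CPM. Relative to Control it rose by 0.94 ± 0.19 in RemoLV (edgeR adjusted p = 0.000654). TGFBR1 (chr1:240842735-240918267, plus strand), the kinase that signals to SMAD2 and SMAD3, had 23.4, 25.4 and 26.6 CPM in RemoLV and 18.1, 18 and 21.7 CPM in Control. These ranges did not overlap, yet the difference of 0.38 missed the threshold (edgeR adjusted p = 0.0765), and passed it when genes needed at least 10 counts in every library (adjusted p = 0.0424) or without MYO 3 (adjusted p = 0.047). With libraries scaled by their totals alone it was 0.90 (adjusted p = 0.00143). Neither DOX nor MYO had a receptor called against Control under the file labels, except that TGFBR2 was called higher in DOX (0.50, edgeR adjusted p = 0.0034) and in MYO (0.33, adjusted p = 0.0361) when libraries were scaled by their totals alone.

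LTBP1 (chr3:106300748-106724538, minus strand), the archetypal carrier of latent TGF-beta 1, set the libraries labelled RemoLV widely apart. It had 202, 172 and 210 CPM there against 58.6, 72 and 51.7 CPM in Control and 79.3, 62.9 and 71.1 CPM in Hyper. DOX had 73.5, 61.7, 59.7, 80.5 and 74.2 CPM and MYO 56.3, 58.2, 81.7, 69.3 and 66.9 CPM. The rise over Control was 1.68 ± 0.16 (3.2-fold, edgeR adjusted p = 4.12e-07), and the ranges of the other 4 groups overlapped. With totals alone it was also called in DOX (0.60, adjusted p = 0.0169) and MYO (0.53, adjusted p = 0.0319).

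LTBP2 (chr7:97744974-97852848, minus strand) had the largest fold change of the set. RemoLV had 46.9, 67.9 and 74.7 CPM, and the highest library elsewhere was a DOX library at 26.5 CPM. DOX had 25.6, 13.1, 13.4, 26.5 and 11.1 CPM, MYO 8.79, 15.8, 9.87, 12.8 and 9.65 CPM, Control 11.6, 11.3 and 5.36 CPM, and Hyper 4.95, 6.62 and 4.96 CPM. The RemoLV libraries exceeded Control by 2.74 ± 0.35 (6.68-fold, edgeR adjusted p = 9.75e-06) and Hyper by 3.52 ± 0.37 (11.5-fold, adjusted p = 1.43e-06). In DOX it rose by 0.93 ± 0.31 over Control (adjusted p = 0.0237), a call that was lost without DOX 1 (adjusted p = 0.0574), DOX 4 (0.0623) or Control 3 (0.144) and when only the 2 groups were fitted (0.0783). In the DOX group, the libraries DOX 1 and DOX 4 were about 2 times the others.

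LTBP3 (chr2:6701455-6720191, plus strand), another carrier of latent TGF-beta, was graded across the groups. Control had 39.9, 35 and 25 CPM and Hyper 28.7, 31.6 and 52 CPM. DOX had 71.3, 47.3, 65.4, 74.7 and 57.7 CPM, MYO 63.9, 73.3, 62.2, 63.5 and 64.3 CPM, and RemoLV 137, 143 and 169 CPM. Both drug groups lay above all Control libraries and below all RemoLV libraries, while 1 Hyper library, at 52 CPM, lay within the range of DOX. Relative to Control it rose by 0.93 ± 0.19 in DOX (edgeR adjusted p = 0.000935), by 0.98 ± 0.19 in MYO (adjusted p = 0.000627) and by 2.17 ± 0.21 in RemoLV (4.5-fold, adjusted p = 5.69e-07). No removal of a library ended any of these calls.

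LTBP4 (chr6:48831018-48861503, plus strand), which supports elastic fibre assembly as well as TGF-beta storage, had the same order of group means. Control had 327, 346 and 241 CPM and Hyper 307, 310 and 430 CPM. DOX had 454, 461, 452, 554 and 360 CPM, MYO 433, 533, 479, 509 and 479 CPM, and RemoLV 775, 628 and 604 CPM. It rose over Control by 0.58 ± 0.15 in DOX (edgeR adjusted p = 0.00555), 0.68 ± 0.15 in MYO (adjusted p = 0.00196) and 1.13 ± 0.17 in RemoLV (2.2-fold, adjusted p = 4.09e-05). The DOX call was lost without Control 3, at 0.44 (adjusted p = 0.0506), the lowest Control library for all 4 LTBPs. The RemoLV calls of TGFBR2, TGFBR3 and the LTBPs stood in each alternative run on the file labels.

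Against the background of all genes, the anthracycline groups were called at 4 members each, a number that in DOX was 8 with library totals and 2 without Control 3. In MYO library totals called TGFBR2 and LTBP1 as well, and leaving out 1 library gave 3 to 4 members. Totals called 6327 (DOX) and 6252 (MYO) of 13552 genes in either direction. All comparisons with Control share its 3 libraries. In DOX the 4 members were TGFB1, LTBP2, LTBP3 and LTBP4, all higher and none lower, while 21.0% of all genes were higher and 21.1% lower. In MYO they were TGFB1, TGFB2, LTBP3 and LTBP4, all higher, while 20.7% of all genes were higher and 21.7% lower. The median log2 fold change of the 10 members was 0.39 in DOX and 0.20 in MYO, beside 0.03 and 0.02 over all genes. DOX and MYO, which hold the same active drug free and in liposomes, were compared at the same dose and time. No member was called between them, and 0% of all genes were (960 at an unadjusted p under 0.05 by edgeR, and 2 called by DESeq2). The intervals of the differences nevertheless left room for LTBP2 to be higher in DOX (0.66, 95% interval 0.11 to 1.22, edgeR adjusted p = 0.695) and for TGFBR2 (0.17, interval 0.02 to 0.32, adjusted p = 0.695). Under the table names both intervals included 0, at 0.57 (-0.01 to 1.14) for LTBP2 and 0.10 (-0.07 to 0.27) for TGFBR2.

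In the comparison of RemoLV with Control, 6 members were higher (TGFBR2, TGFBR3 and LTBP1 to LTBP4) and none lower, beside 23.1% and 24.0% of all genes, and the members' median was 0.79 beside 0.02. LTBP2 and LTBP3 also exceeded an absolute log2 fold change of 2. All 3 RemoLV libraries lay above all 3 Control libraries for 8 members (26.4% of all genes) and below them for TGFB2 alone (25.7%). With library totals TGFB1 (0.45, edgeR adjusted p = 0.0202), TGFB3 and TGFBR1 were called higher as well, which makes 9. That scaling called 7216 of 13552 genes in either direction and moved the median of all genes to 0.52. Without the library MYO 2, which belongs to neither group, TGFB2 was called lower at -0.57 (edgeR adjusted p = 0.038).

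Hyper, the pressure overload model, had no member called against Control by edgeR, in a comparison with 0% of all genes called, 2418 at an unadjusted p under 0.05 and 312 called by DESeq2. The largest differences were those of TGFB3 (-0.82) and LTBP2 (-0.78 ± 0.36, unadjusted p = 0.0435, edgeR adjusted p = 0.268, 95% interval -1.53 to -0.03). This count over all genes depended on single libraries, rising to 2538 without Control 2 and to 773 without Hyper 1, so it does not show that Hyper and Control were alike.

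**Figure D3:**
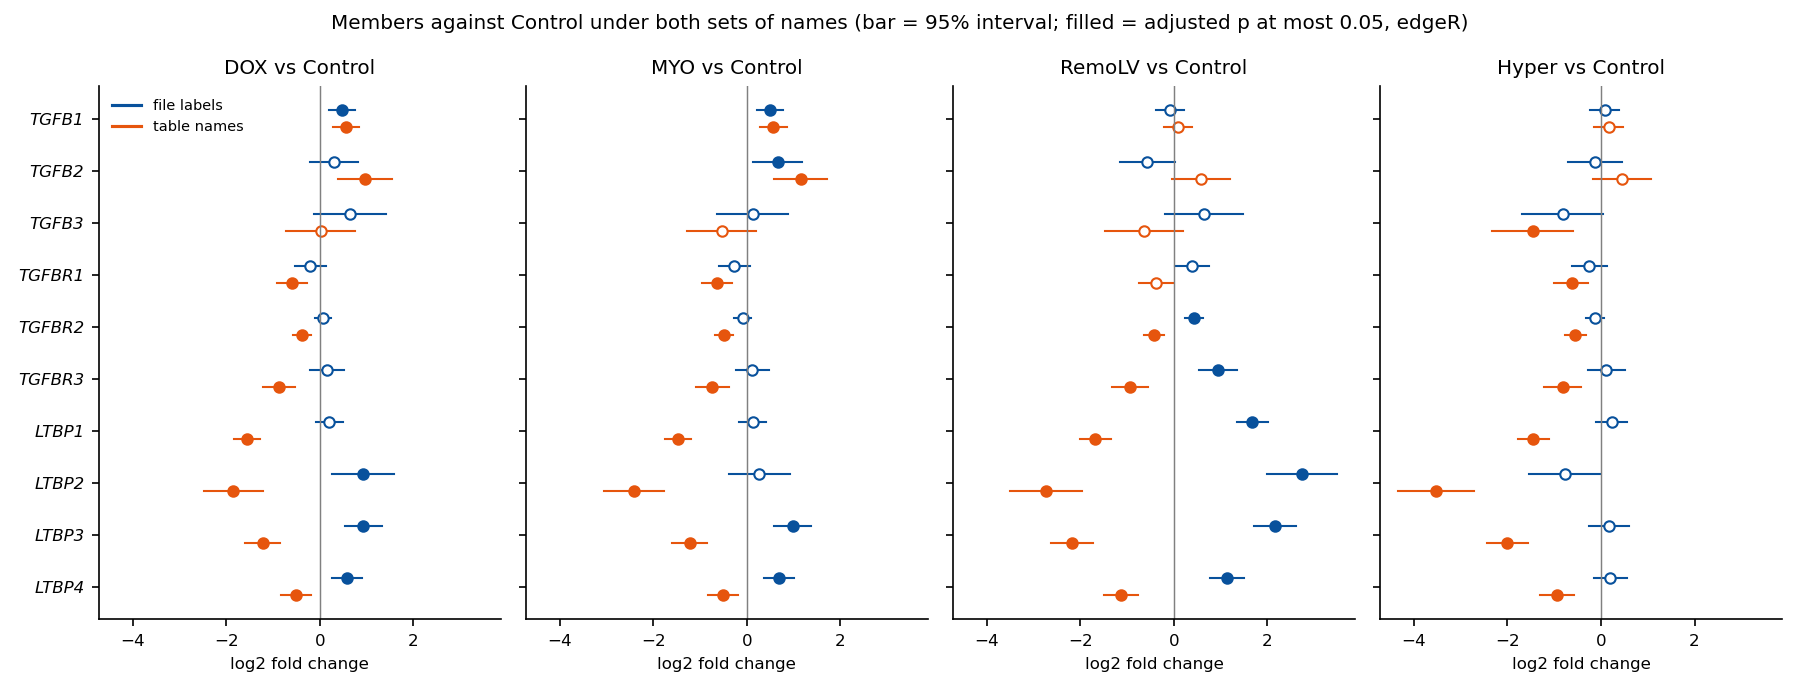
Log2 fold change of each member against Control, 1 panel per model, with bars for 95% intervals and filled points for an edgeR adjusted p at most 0.05, under the file labels and under the table names. The rises of TGFB1 in DOX and MYO stand under both namings (0.48 and 0.49, or 0.57), while the LTBP values change sign in DOX, MYO and RemoLV. In Hyper LTBP1, LTBP3 and LTBP4 change sign as well.

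The naming decided the direction of most comparisons with Control. With the table names, DOX had 2 members higher (TGFB1 and TGFB2, at 0.57 and 0.97; 15.0% of all genes) and 7 lower (14.6%), and MYO had the same 2 higher (14.8%) and 7 lower (14.4%). The 7 were the receptors and the LTBPs, for example LTBP1 at -1.55 and LTBP2 at -1.85 in DOX. RemoLV then had 0 higher (24.0%) and 6 lower (23.2%), which is the comparison above with its sign turned. Hyper had 0 higher (18.7%) and 8 lower (17.2%), with LTBP2 at -3.52 and LTBP3 at -2. This last comparison holds the libraries that the file labels call RemoLV and Hyper, where the same 8 members (TGFB3, all receptors and all LTBPs) were higher in RemoLV, beside 17.0% of all genes higher and 18.6% lower. The TGFB3 call there was lost without Hyper 2 (1.26, edgeR adjusted p = 0.0516).

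The libraries were the same under both namings in 2 comparisons. In the contrast of DOX and MYO together with Hyper, 6 members were higher and none lower, beside 15.8% and 16.9% of all genes, and the members' median was 0.42 beside 0.03. They were TGFB1 (0.40 ± 0.12, edgeR adjusted p = 0.0155), TGFB2 (0.61 ± 0.23, adjusted p = 0.0471), TGFB3 (1.2 ± 0.35, adjusted p = 0.0147), LTBP2 (1.38 ± 0.31, adjusted p = 0.00249), LTBP3 (0.78 ± 0.17, adjusted p = 0.00242) and LTBP4 (0.43 ± 0.14, adjusted p = 0.023). The receptors and LTBP1 lay between -0.06 and 0.12 and were not called, although with totals alone TGFBR2 was called higher (0.37, adjusted p = 0.0173). All 10 DOX and MYO libraries lay above all 3 Hyper libraries for TGFB1, TGFB3 and LTBP2, as did 9.98% of all genes. The calls rested on few Hyper animals: without Hyper 1, TGFB1 (adjusted p = 0.104), TGFB2 (0.168), TGFB3 (0.0768) and LTBP4 (0.144) were lost, and without Hyper 2, TGFB2 (0.153), TGFB3 (0.0862) and LTBP4 (0.126). LTBP2 and LTBP3 kept their calls. The TGFB2 call was the weakest, lost in 13 of 19 fits that left out 1 library, from every group, with the table names (adjusted p = 0.0556), with the 3 libraries labelled RemoLV left out (0.062), with DESeq2 size factors (0.0514), without a filter (0.056) and when only the groups compared were fitted (0.0681). LTBP4 was lost when the replicate number was fitted as a block (0.42, adjusted p = 0.0551).

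The other was the 3 libraries labelled RemoLV against the mean of the other 4 groups, a comparison added after seeing the data. The receptors and LTBPs were higher, which makes 7 members beside 20.0% of all genes, and TGFB1 and TGFB2 were lower, beside 20.1%, so the number of members that were lower equals the share of all genes. LTBP2 was higher by 2.63 ± 0.22 (6.21-fold, edgeR adjusted p = 4.3e-08), LTBP3 by 1.65 ± 0.14 (adjusted p = 5.5e-08), LTBP1 by 1.54 ± 0.11 (2.9-fold, adjusted p = 4.63e-09) and LTBP4 by 0.77 ± 0.12 (adjusted p = 7.69e-05). TGFBR3 was higher by 0.84 ± 0.14 (adjusted p = 0.000105), TGFBR1 by 0.56 ± 0.13 (adjusted p = 0.00209) and TGFBR2 by 0.46 ± 0.07 (adjusted p = 5.76e-05). TGFB2 was lower by -0.78 ± 0.23 (adjusted p = 0.0111), which was lost without RemoLV 1 (adjusted p = 0.0645). TGFB1 was lower by -0.35 ± 0.12 (adjusted p = 0.0229), which was lost without RemoLV 2 (0.0771) or RemoLV 3 (0.107), and neither was called when libraries were scaled by their totals alone. TGFB3 missed the threshold (0.65 ± 0.3, adjusted p = 0.0881), but passed it without DOX 1 (adjusted p = 0.00166) and with library totals (0.91, adjusted p = 0.0125).

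Library by library, the 7 receptors and LTBPs were above all 16 other libraries in each of the 3 labelled RemoLV, as were 8.18% of all genes, and TGFB2 was below all 16 (7.98%), which for TGFB2 alone did not hold with library totals. Over the 5 groups together, all 10 members passed the edgeR test for any difference, beside 63.3% of all genes.

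Sums of markers of other cell types differed between the same groups. A list of 10 fibroblast markers summed to 1030 to 1580 CPM in Control, 788 to 1710 in Hyper, 2090 to 3690 in DOX, 2000 to 3050 in MYO and 4420 to 5110 in RemoLV, which is nearly the order of the LTBP sum. Against Control, 7 of the 10 rose in RemoLV and 3 in DOX. MYO had 2 that rose and 1 that fell, so DOX and MYO are near the shares of all genes that rose (21.0% and 20.7%), and RemoLV is above its share (23.1%). Atrial cardiomyocyte markers (10 of 12 with counts) summed to 9850 to 13200 CPM in RemoLV, 1220 to 2520 in DOX, 877 to 1360 in MYO, 348 to 1360 in Hyper and 214 to 266 in Control. All 9 that were tested rose in RemoLV over Control. In DOX and in MYO 2 of the 9 rose and 0 fell, near the shares of all genes that rose. MYL7 led in both (4.03 and 3.51), while the list medians were -0.11 and -0.17. The atrial marker BMP10 was at 0 in all Control, DOX and Hyper libraries. The 8 ventricular markers summed to 25900 to 30000 CPM in RemoLV and 45900 to 76100 elsewhere, and 7 were lower in RemoLV than in Control. Of these 8, 2 rose and 0 fell in DOX, and 2 rose and 1 fell in MYO, beside 21.0% and 20.7% of all genes that rose. Of 10 macrophage and leukocyte markers, 6 rose and 1 fell in DOX, 2 and 1 in MYO, and 4 and 2 in RemoLV, while their sums overlapped (237 to 309 CPM in Control, 224 to 486 in DOX). Of 9 endothelial markers tested, 3 rose and 2 fell in DOX, 2 and 1 in MYO, and 0 and 3 in RemoLV, beside 24.0% of all genes that fell there, where they summed to 826 to 902 CPM against 950 to 1150 in Control. Adipocyte markers summed to 2090 to 3980 CPM in Control, 1570 to 2420 in Hyper, 1100 to 1800 in DOX, 1120 to 1420 in MYO and 536 to 806 in RemoLV, yet of the 5 tested only 2 fell in each drug group, and in RemoLV 1 rose and 1 fell with a median of 1.67, opposite in sign to the sum. The smooth muscle sums of all groups lay between 1020 and 1690 CPM, with 3 of 10 markers higher and 3 lower in both drug groups and 2 and 2 in RemoLV, beside 20.7% to 24.0% of all genes in either direction. The 3 epicardial markers with counts summed to 10.2 to 16.9 CPM in Control, 12.1 to 21 in Hyper, 16.7 to 33.9 in DOX, 20.1 to 32.6 in MYO and 3.61 to 8.37 in RemoLV, and of the 2 tested 1 rose in each drug group and 1 fell in RemoLV. Red cell and platelet markers (5 of 8 with counts) summed to 37.5 to 351 CPM in Control and 9.58 to 198 in the other groups, and of the 3 tested 2 fell in DOX, 1 rose in MYO, and 1 rose and 2 fell in RemoLV. The part of these markers in the LTBP, receptor and ligand differences was not tested, and infarction, the sampled wall and the atrial transcripts cannot be told apart in these 3 libraries.

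**Figure D4:**
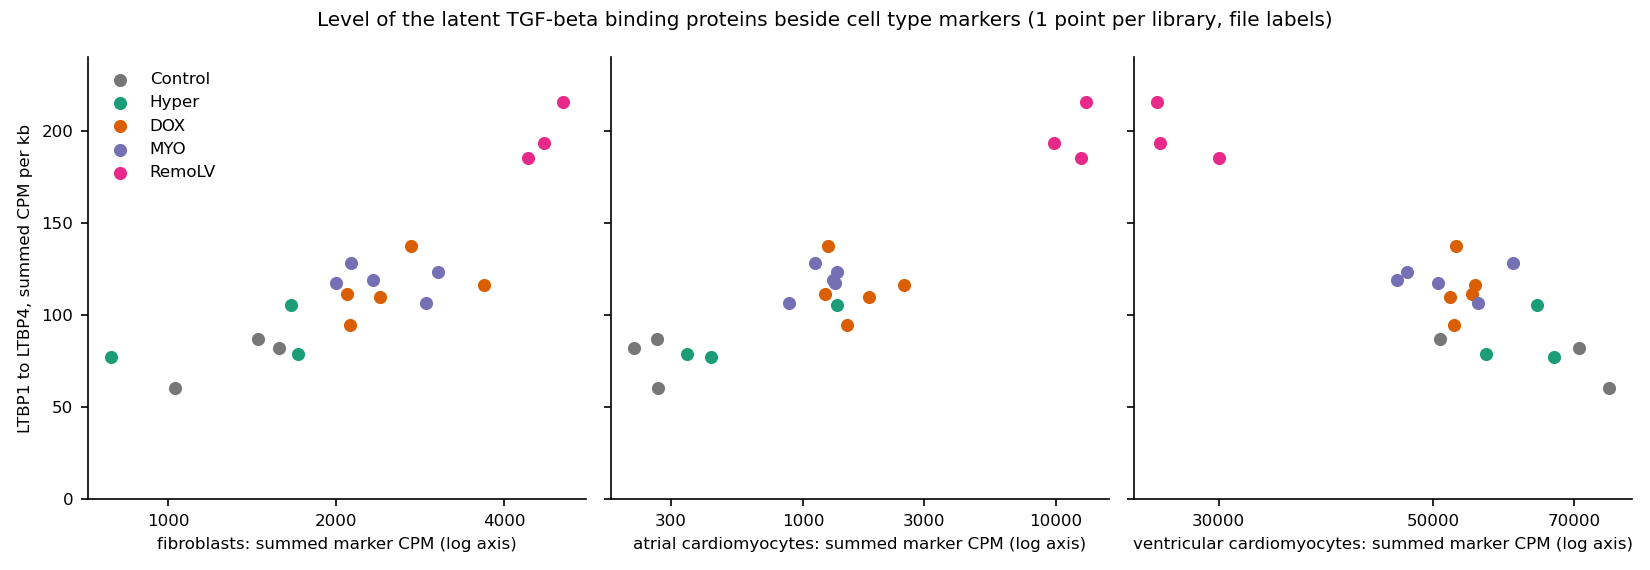
Summed LTBP1 to LTBP4 level (CPM per kb, linear axis from 0) against the summed CPM of fibroblast, atrial and ventricular cardiomyocyte markers (log axes), 1 point per library, coloured by file label. The 3 RemoLV libraries, at 186 to 215 CPM per kb, sit apart from the other 16 on all marker axes, and the Control sums of 60.5 to 86.7 lie below all DOX and MYO sums.

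Genes that varied most like each member were sought in the deviations of log2 CPM from the group means over the 19 libraries, which share depth and tissue composition, so the correlations are descriptions. TGFBR2 went most closely with FBN1, the fibrillin to which LTBPs attach (r = 0.914, and 0.881 without the 2 libraries farthest from the median). LTBP4 went with TNXB, which encodes the matrix glycoprotein tenascin-X (r = 0.886, then 0.917), followed by AP1G2 and ENDOG (0.864 and 0.861). LTBP1 went with MAPK14 (0.857) and CHRDL1, a secreted BMP antagonist (0.841, then 0.901), and LTBP3 with LRRK1 (0.826), ITGAM (0.821) and the microfibril protein gene MFAP4 (0.807). LTBP2 was closest to ANXA6 (0.799). TGFB1 was closest to GLRX5, a mitochondrial iron-sulfur cluster gene (0.89, then 0.838), followed by the respiratory chain genes NDUFS7 and COX7A1 (0.852 and 0.85). TGFB3 was closest to EIF4A1 (0.911), SPRY2 (0.904) and ERRFI1 (0.903), and without DOX 1 and DOX 5 these were 0.773, 0.726 and 0.733. TGFB2 (NARS2, 0.827, then 0.633), TGFBR1 (FHDC1, 0.791, then 0.641) and TGFBR3 (IFT52, 0.843, then 0.776) had their closest genes outside the pathway lists.

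Among the members, LTBP3 and LTBP4 went together most (r = 0.638 with and without the 2 libraries farthest out), then LTBP2 and LTBP3 (0.573, then 0.496). The lowest value was that of TGFBR1 and LTBP3 (-0.387, then -0.606), and TGFBR2 and LTBP4 went from 0.384 to 0.594. LTBP4 and TGFB1 are neighbours at a distance, 471 kb apart on chromosome 6 with 17 protein-coding genes between them, and 19 lie between LTBP2 and TGFB3 on chromosome 7.

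The wider pathway was read from 3 lists, whose counts stand beside the shares of all genes, namely 21.0% higher and 21.1% lower in DOX, 20.7% and 21.7% in MYO, and 23.1% and 24.0% in RemoLV. Of 20 genes that activate latent TGF-beta or anchor it in the matrix, all tested, 8 rose and 2 fell in DOX. MYO had 6 and 4, and RemoLV 9 and 4, with medians of 0.20, 0.23 and 0.32 beside 0.03, 0.02 and 0.02 over all genes. The genes of this list that fell in MYO and RemoLV are near the shares of all genes. With libraries scaled by totals alone, the counts were 12 and 1, 12 and 3, and 13 and 2. That scaling moved the list medians to 0.64, 0.65 and 0.88, beside 0.45, 0.44 and 0.52 over all genes. It called 6327, 6252 and 7216 of 13552 genes in either direction, so the shares above do not apply to counts with totals alone. FBN2, a fibrillin of developing tissue, was the most raised in DOX, from 4.84 ± 0.906 to 14 ± 3.34 CPM (1.53, edgeR adjusted p = 0.000101). EMILIN1, an elastic fibre glycoprotein that restrains TGF-beta processing, was the most raised in MYO, from 20.1 ± 4.61 to 52.2 ± 10.2 CPM (1.37). MMP2, a gelatinase, was the most raised in RemoLV, from 83.3 ± 9.04 to 299 ± 45.7 CPM (1.85, adjusted p = 4.66e-07). ITGB8, a subunit of an integrin that frees TGF-beta, was the most lowered in DOX (-1.34, adjusted p = 0.000322). THBS1, the activator thrombospondin 1, was the most lowered in MYO (-2.53, adjusted p = 0.0133) and RemoLV (-3.26, adjusted p = 0.00904), but Control itself spread at 638 ± 428 CPM, and DESeq2 gave THBS1 no adjusted p.

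The second list, of 20 genes, held co-receptors, decoys and secreted binders and is called the binder list here. It also held signalling receptors such as BMPR2 and intracellular regulators such as SMURF1. Of its genes 17 were tested, and 7 rose and 3 fell in DOX. MYO had 6 and 4, and RemoLV 9 and 4. Those that fell in DOX, MYO and RemoLV are near the shares of all genes. With totals alone the counts were 9 and 1, 9 and 1, and 11 and 2. The list medians were then 0.57, 0.49 and 0.92, beside 0.45, 0.44 and 0.52 over all genes. FMOD, a small proteoglycan that binds TGF-beta, was the most raised in DOX (10.2 ± 3.73 to 21.8 ± 8.29 CPM, 1.10, edgeR adjusted p = 0.00526) and MYO (0.82, adjusted p = 0.0275), and BGN, another, in RemoLV (52.4 ± 18.7 to 199 ± 36.7 CPM, 1.92, adjusted p = 4.28e-05). BMPR2, the type II receptor for BMPs, was the most lowered in DOX (-0.85, adjusted p = 0.000753) and MYO (-1, adjusted p = 0.000189). ASPN, a proteoglycan that inhibits TGF-beta, was the most lowered in RemoLV (140 ± 41 to 50.8 ± 3.45 CPM, -1.46, adjusted p = 2.22e-05).

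Of 20 genes known to respond to TGF-beta, all tested, 4 rose and 1 fell in DOX. MYO had 4 and 4, and RemoLV 6 and 6 with a median of 0.15. The numbers that rose in DOX and MYO and fell in MYO are near the shares of all genes. With totals alone the counts were 10 and 0, 8 and 1, and 9 and 3. The list medians were then 0.70, 0.66 and 0.69, beside 0.45, 0.44 and 0.52 over all genes. CCN2, a matricellular target, had the largest rise in DOX (2.52, edgeR adjusted p = 0.016), although the DOX libraries spread at 401 ± 535 CPM over 70.1 ± 41.5 in Control, and with the table names it was 1.42 (adjusted p = 0.144). COL1A1 led in MYO (501 ± 152 to 1120 ± 249 CPM, 1.16, adjusted p = 0.00437) and COL3A1 in RemoLV (1340 ± 437 to 6290 ± 560 CPM, 2.23, adjusted p = 9.84e-06). The largest falls in the drug groups were in SKIL, a SMAD repressor, in DOX (-0.82, adjusted p = 0.0123), and in TNC, a matrix glycoprotein, in MYO (-1.32, adjusted p = 0.0287). With libraries scaled by totals alone, SKIL in DOX (-0.34, adjusted p = 0.249) and TNC in MYO (-0.85, adjusted p = 0.122) were no longer called. Collagen genes stand in the fibroblast marker list as well.

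In Hyper, 0 genes of all 3 lists were called against Control by edgeR, while DESeq2 called 1, 2 and 2 lower in the order given. Relative to Hyper, DOX and MYO together had 8 activation and anchor genes higher and 0 lower, beside 15.8% and 16.9% of all genes, led by FBN2 (1.71, edgeR adjusted p = 2.82e-05). They had 5 genes of the binder list higher and 0 lower, led by FMOD (1.13, adjusted p = 0.00385). They had 7 response genes higher, led by CCN2 (2.13, adjusted p = 0.0322), and 1 lower, NOX4 (-0.48, adjusted p = 0.0358), an oxidase induced by TGF-beta. With totals alone these 3 pairs of counts were 10 and 0, 8 and 0, and 11 and 0. The list medians were then 0.83, 0.49 and 0.67, beside 0.29 over all genes, and 4654 of 13552 genes were called in either direction. The 3 pairs of counts were the same under the table names. The comparisons with Control were not: the activation list became 5 higher and 7 lower in DOX and 2 and 9 in MYO, the binder list 2 and 6, then 2 and 7, and the response list 4 and 4, then 3 and 5. Under those names Hyper against Control, with none called under the file labels, had 2 higher and 8 lower in the activation list. It had 1 and 8 in the binder list and 1 and 6 among the response genes. The shares of all genes under those names were 15.0% higher and 14.6% lower in DOX, 14.8% and 14.4% in MYO, and 18.7% and 17.2% in Hyper. The 3 response genes that rose in MYO and the genes of the binder list that rose in DOX and MYO are near these shares.

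**Figure D5:**
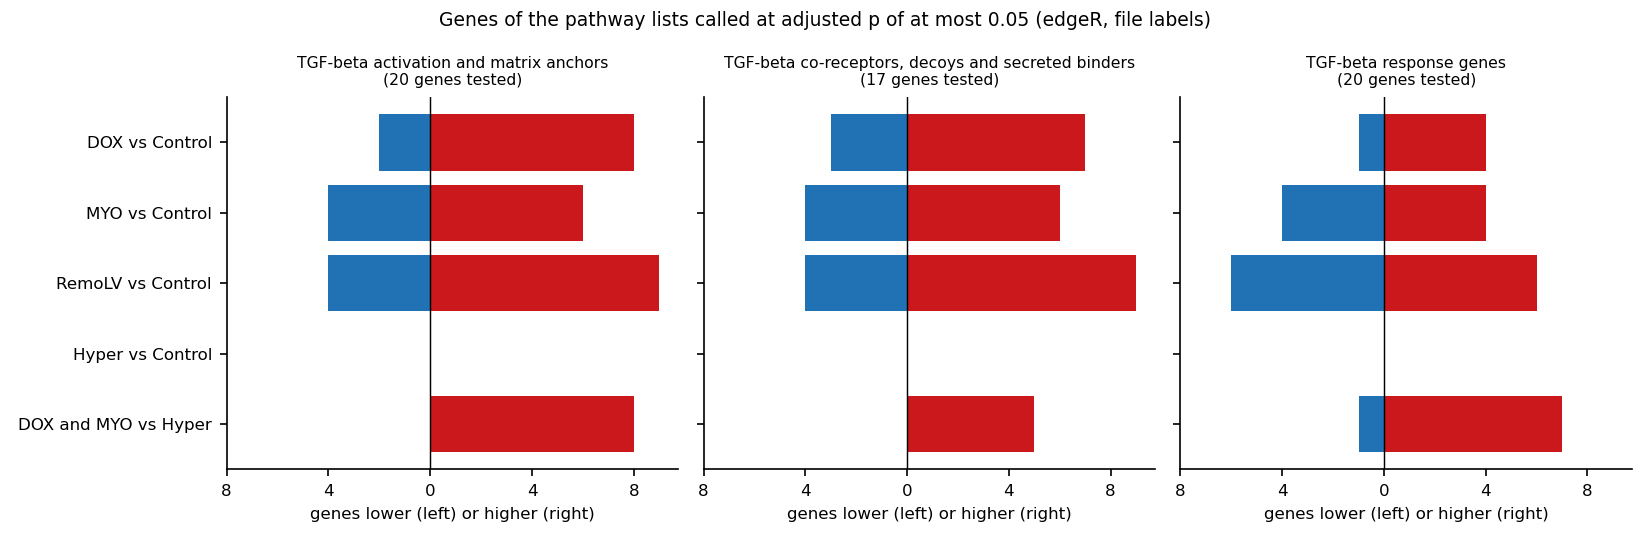
Number of genes higher (right of 0) and lower (left of 0) at an edgeR adjusted p at most 0.05 in each pathway list, for each comparison under the file labels. RemoLV against Control has 9 activation and anchor genes higher and 4 lower, and Hyper against Control has 0 in all lists.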

How the data were processed

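The authors deposited 1 table of raw counts per gene and library. By the study's methods these came from poly(A) RNA in directional libraries, aligned to Sscrofa11.1 with STAR and counted on the reverse strand with HTSeq 0.11.1 in union mode. They also deposited 1 table of log2 (rlog) values with columns of their own comparisons. The log2 values served to match column names to libraries by rank correlation and to supply gene symbols, and the comparison columns were not used.

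Counts were fitted in R 4.3.3 with edgeR 4.0.16 (TMM scaling, filterByExpr, quasi-likelihood test), in 1 model of the 5 groups over 19 libraries, with Benjamini-Hochberg adjustment over 13552 genes. Called means an adjusted p at most 0.05. Values after ± are SD for levels and SE for log2 fold changes. The steps were tested on simulated data.

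Alternatives were DESeq2 1.42.0 and its size factors, library totals, no filter, at least 10 counts in every library, a replicate block, only the groups compared, the table names, and each library left out. Leaving out the libraries labelled RemoLV, leaving out libraries under the table names, and the comparison of RemoLV with the mean of the other groups were added after seeing the data. Gene positions, exon lengths and promoters are from RefSeq on Sscrofa11.1, whereas counting used Ensembl models.

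Named genes are the members, the most raised and most lowered called gene of each pathway list in each comparison with Control and in DOX and MYO against Hyper, and the 3 genes most like each member, of which some are given here. A gene that this rule names and a promoter window are not reported here. The members and lists were chosen with earlier results of these data known. Intervals from the model cover the spread between animals, with 3 to 5 animals in each group.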

Additional observations from a re-analysis of the deposited data

Results flagged for a closer look

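The TGFB3 level of 56.2 CPM in the library DOX 1 lay far from the other DOX libraries (13.8 to 19 CPM), and its gap exceeded the 95% critical value of Dixon's test for 5 samples. The LTBP3 level of 73.3 CPM in MYO 2 exceeded that value in the same way, with the other MYO libraries close together at 62.2 to 64.3 CPM. They were found in 20 group checks, of which chance passes about 1 in 20.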

How the results depend on the processing

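Depth limits TGFB2, TGFB3 and LTBP2 most, with 72 to 85 counts in their lowest libraries, and 3 animals in a group let 1 library decide several calls. Of the results recomputed with 1 library left out, 1924 kept their direction and side of the threshold, 26 changed sign, 32 lost a call, 4 gained one and 9 moved in value or number. The causes were not tested, except that the table names exchange libraries between groups and that library totals shift all genes.

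With the table names the members higher and lower numbered 2 and 7 in DOX, 2 and 7 in MYO and 0 and 6 in RemoLV, 8 were lower in Hyper, and 0 were higher in RemoLV against Hyper. Log2 fold changes against Control then turned to -0.38 (TGFBR2), -0.87 (TGFBR3), -1.55 (LTBP1), -1.85 (LTBP2), -1.21 (LTBP3) and -0.51 (LTBP4) in DOX. In MYO they turned to -0.53 (TGFB3), -0.74 (TGFBR3), -1.47 (LTBP1), -2.41 (LTBP2), -1.22 (LTBP3) and -0.50 (LTBP4). In RemoLV they turned to 0.09 (TGFB1), 0.57 (TGFB2), -0.64 (TGFB3), -0.38 (TGFBR1), -0.42 (TGFBR2), -0.94 (TGFBR3), -1.68 (LTBP1), -2.74 (LTBP2), -2.17 (LTBP3) and -1.13 (LTBP4). In Hyper they turned to 0.44 (TGFB2), -0.82 (TGFBR3), -1.45 (LTBP1), -2 (LTBP3) and -0.94 (LTBP4). DOX against MYO turned to -0.14 (TGFBR3), -0.08 (LTBP1) and 0.01 (LTBP3), and RemoLV against Hyper to 0.13 (TGFB2), -0.11 (TGFBR3), -0.23 (LTBP1), -0.17 (LTBP3) and -0.20 (LTBP4).

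Scaling by library totals moved the median of all genes against Control to 0.45 (DOX), 0.44 (MYO), 0.52 (RemoLV) and 0.17 (Hyper). It gave 8 members higher in DOX, 0 lower in RemoLV against the mean of the others, and opposite signs for TGFBR1 in DOX (0.24) and MYO (0.17), TGFBR2 in MYO (0.33) and Hyper (0.05), TGFB1 in RemoLV (0.45) and in RemoLV against Hyper (0.18), TGFB2 in Hyper (0.04), and LTBP1 in DOX and MYO against Hyper (0.20).

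Leaving out 1 library gave 2 to 4 members higher in DOX (2 without Control 3), 0 to 1 lower in RemoLV, 2 to 6 higher in DOX and MYO against Hyper (2 without Hyper 1), and 1 to 2 lower in RemoLV against the mean of the others (1 without any RemoLV library). Under the table names it gave 1 to 2 higher in DOX (1 without its Control 1) and 0 to 1 higher in RemoLV. Against Control, signs turned within -0.02 to 0.37 for TGFBR3 in DOX, within -0.09 to 0.30 (TGFB3), -0.05 to 0.34 (TGFBR3) and -0.01 to 0.45 (LTBP2) in MYO, and within -0.24 to 0.05 for TGFB1 in RemoLV. In Hyper they turned within -0.07 to 0.22 (TGFB1), -0.24 to 0 (TGFB2), -0.06 to 0.33 (TGFBR3) and -0.14 to 0.33 (LTBP3). For DOX against MYO the ranges were -0.08 to 0.05 (TGFB1), -0.03 to 0.66 (TGFB3), -0.03 to 0.18 (TGFBR1), -0.08 to 0.11 (TGFBR3) and -0.11 to 0.04 (LTBP3). For DOX and MYO against Hyper they were -0.10 to 0.14 (TGFBR1), -0.03 to 0.05 (TGFBR3) and -0.14 to 0.03 (LTBP1).

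Groups share replicate numbers, but over 32 pairs of same-numbered libraries the deviations correlated at -0.246 to 0.242, so the pairing rests on a number only. The replicate block turned TGFBR1 (-0.08) and TGFBR3 (-0.05) in DOX and MYO against Hyper, ended the LTBP4 call there, and changed no other call of a member.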
